A study of Glycine max with 12 samples.

Results

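In soybean roots, 55 of the 43517 genes counted had lower read counts at 50 µM than at 5 µM MnSO4 in both plant materials, by a rule that allowed no overlap between the libraries of the 2 treatments. Levels are given as CPM, the read count of a gene per 1000000 counts of its library. Genes were chosen by these treatment values: a gene qualified when its mean over the 12 libraries was at least 2 CPM, when the highest of the 6 libraries at 50 µM lay below the lowest of the 6 libraries at 5 µM, and when the log2 change from 5 to 50 µM was -1 or lower in each material. That change was taken between group means after adding 0.5 CPM. The drops are therefore given below as a description, and the counts of a test on the same values, given once for reference, support nothing.

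The libraries came from roots of 2 materials, labelled W and OX3. Each material had received MnSO4 at 5 µM, the control of the study, or at 50 µM. The 4 groups held 3 libraries each, with replicate numbers 2, 3 and 4 except for W at 50 µM, which had 1, 2 and 3. The authors' tables head the W columns WT and the OX3 columns OX. The labels give no meaning for either name, no construct or altered gene, no plant age and no length of treatment. Nothing states that the 3 libraries of a group were grown or extracted apart, and the p-values below reflect the spread among libraries, part of which may be technical.

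Manganese is a nutrient that plants need in small amounts. It serves the oxygen-evolving complex of photosynthesis and the mitochondrial superoxide dismutase, and it can replace magnesium in many enzymes. Roots take it up with transporters that also carry iron and other divalent metals, and an excess is moved into vacuoles and other compartments or bound by organic acids. Excess manganese in soils, most often acid or waterlogged ones, is a known cause of toxicity in legumes. The deposited identifiers end in Wm82.a2.v1, a name of the Williams 82 gene models. None of the 59048 genes of the reference table carries them (0 matched), so the 55 genes are given by identifier, and no protein or role can be attached to them here. The ending is left off here. Chromosome numbers stand before the letter G. For the same reason the tissue label could not be checked against root marker genes, and the 25 lists of genes by product, markers of other tissues included, had 0 matched genes.

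Library totals lay between 15175866 and 19408318 counts. Across the 31841 genes tested, as log2(CPM + 0.5), 4 libraries had a higher mean correlation with another group than with their own. W control replicate 2 was at 0.953 with the OX3 controls and 0.923 with the other W controls. W control replicate 4 was at 0.950 with the libraries at 50 µM of either material and 0.943 with its own group. OX3 control replicate 3 was at 0.948 with the W controls and 0.941 with its own group, and W replicate 1 at 50 µM was at 0.957 with the OX3 libraries at 50 µM and 0.955 with its own. The choice of the 55 genes was repeated without each library, as given further on.

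The rule can be followed step by step. Of the genes in the table, 25399 reached a mean of 2 CPM. All 6 libraries at 50 µM lay below all 6 at 5 µM in 363 of them, or 1.43%. A log2 change of -1 or lower was found in 1617 genes in W (6.37%) and in 1802 genes in OX3 (7.09%), and 534 genes met it in both. Of the 363 genes without overlap, 56 met the change in W only, 37 in OX3 only and 215 in neither material. The same rule turned upside down, for genes higher at 50 µM, chose 58 genes.

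Most of the 55 genes passed with a narrow gap. The lowest control library was between 1.002 and 1.67 times the highest library at 50 µM, with a median ratio of 1.12, and the ratio was under 1.2 for 38 genes. Glyma.11G012000 and Glyma.15G243100 were the nearest inside, each at a ratio of 1.002. The nearest outside were Glyma.07G206800 at 0.997 and Glyma.20G163200 at 0.995, among 479 genes that missed this condition alone. Glyma.06G084100 was nearest inside the bound in W with a log2 change of -1.006, followed by Glyma.05G192600 at -1.062. The nearest outside it were Glyma.17G158500 at -0.991 and Glyma.03G161300 at -0.967. In OX3 the nearest were Glyma.11G221200 at -1.005 and Glyma.08G279800 at -1.011 inside and, outside, Glyma.11G130100 a hair above the bound and Glyma.08G287800 at -0.987. The lowest means inside were 2.168 CPM in Glyma.19G152400 and 2.189 CPM in Glyma.11G194900, and the highest outside were 1.953 CPM in Glyma.11G224600 and 1.918 CPM in Glyma.08G031600.

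Scaling by the raw library total placed the median gene slightly lower at 50 µM. The median log2 change of the 25399 genes was -0.16 in W and -0.15 in OX3. It was -0.03 and 0.01 when totals were scaled by TMM, a method that balances the libraries on most genes. On that scale the medians of the 55 genes were -1.29 in W and -1.21 in OX3, against -1.39 and -1.35 on the raw totals. All 55 stayed lower at 50 µM in both materials, with changes no higher than -0.82 in W and -0.85 in OX3, but only 30 still met every condition. Of the other 25, the treatments overlapped in 6, the change was smaller than the bound in 16, and both applied to 3.

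**Figure D1:**
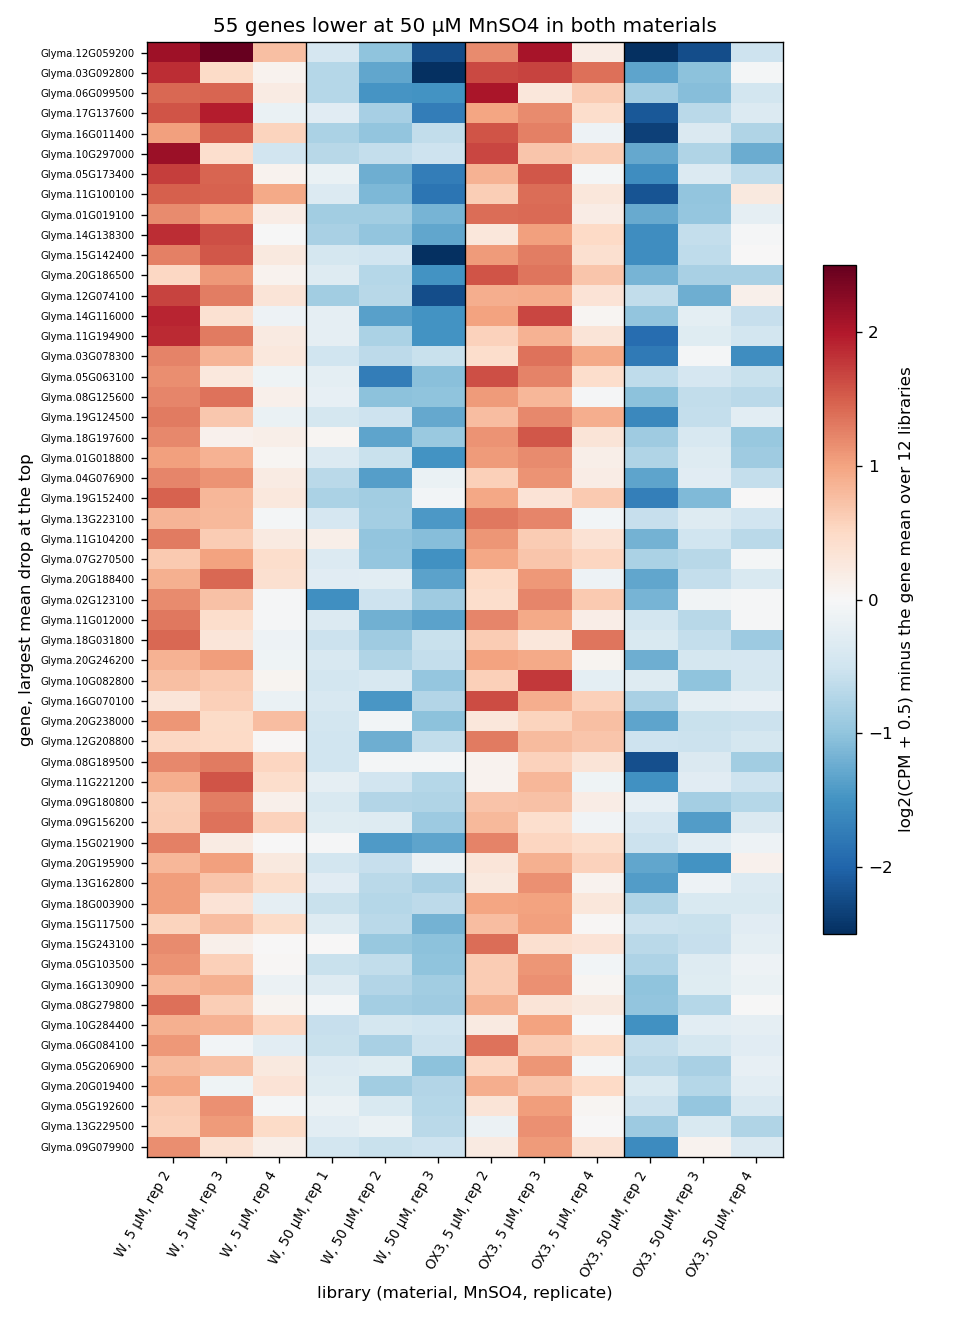
Levels of the 55 genes in the 12 libraries, as log2(CPM + 0.5) minus the mean of the gene over all libraries, with 1 row per gene and the largest mean drop at the top. Most cells are red in the control columns and blue at 50 µM, and the control columns numbered 4 are the palest of the controls, with pale blue cells in some genes.

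The largest drop of the 55 belonged to Glyma.12G059200. In W it was at 13.6, 19.8 and 4.94 CPM at 5 µM and at 1.9, 1.1 and 0.181 CPM at 50 µM. In OX3 it was at 6.85, 12.9 and 3.16 CPM at 5 µM and at 0.0599, 0.198 and 1.75 CPM at 50 µM. The control mean was 12.1 times the mean at 50 µM in W and 11.5 times in OX3, the highest ratios of the 55 in each material. OX3 replicates 2 and 3 at 50 µM held only 1 and 3 reads of this gene, and OX3 replicate 4 held 31. This replicate was the highest of its group and stayed below every control.

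Glyma.03G092800 had steadier controls in OX3 than in W. Its W libraries were at 26.8, 10.2 and 7.66 CPM at 5 µM and at 4.19, 2.59 and 0.662 CPM at 50 µM. Its OX3 libraries were at 23.5, 24 and 19.4 CPM at 5 µM and at 2.58, 3.23 and 6.87 CPM at 50 µM. The group means were 14.9 ± 10 and 2.48 ± 1.8 CPM (SD, n = 3) in W, and 22.3 ± 2.5 and 4.22 ± 2.3 CPM (SD, n = 3) in OX3. The gap between treatments rested on W control replicate 4 and OX3 replicate 4 at 50 µM, at 7.66 and 6.87 CPM.

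Glyma.06G099500 combined a large drop with a high level. In W it was at 141, 144 and 59.9 CPM at 5 µM and at 31.7, 18.3 and 18.1 CPM at 50 µM. In OX3 it was at 217, 63.8 and 80.7 CPM at 5 µM and at 28.8, 24.6 and 37.8 CPM at 50 µM. OX3 control replicate 2 was well above the other controls of its group, and without it the log2 change in OX3 was -1.24 in place of -1.97. The lowest control was still 1.58 times the highest library at 50 µM, among the widest gaps of the 55.

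The next 3 genes by size of drop differed in which library at 50 µM came closest to the controls. It was W replicate 1, OX3 replicate 3 and W replicate 3 in the order given here. The W means of Glyma.17G137600 were 36.9 ± 22 CPM at 5 µM and 7.57 ± 3.7 CPM at 50 µM (SD, n = 3). Those of OX3 were 26.6 ± 6.7 and 7.44 ± 4.2 CPM (SD, n = 3). Its W control replicate 4, at 12.3 CPM, was only just above W replicate 1 at 50 µM, at 11.3 CPM. The W means of Glyma.16G011400 were 35.8 ± 12 CPM at 5 µM and 9.32 ± 1.3 CPM at 50 µM (SD, n = 3). Those of OX3 were 35 ± 18 and 8.43 ± 5.1 CPM (SD, n = 3). The W libraries of this gene at 50 µM lay close together, at 9.27, 8.04 and 10.6 CPM, while the OX3 libraries spread from 2.88 to 12.8 CPM. Glyma.10G297000, the shortest of the 55 with 418 bp, was at 17, 4.84 and 2.35 CPM in the W controls. Its mean there leaned on replicate 2, without which its log2 change in W was -0.64 in place of -1.70. The OX3 controls of this gene were at 12.1, 5.91 and 5.54 CPM against 1.14, 1.85 and 1.18 CPM at 50 µM, a wider separation than in W.

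The other 6 of the 12 largest drops ranged from nearly alike to unlike in size between the materials. The W means of Glyma.05G173400 were 21 ± 11 CPM at 5 µM and 4.36 ± 2.8 CPM at 50 µM (SD, n = 3). Those of OX3 were 16.7 ± 8.9 and 4.82 ± 2 CPM (SD, n = 3). The W means of Glyma.11G100100 were 7.16 ± 1.6 CPM at 5 µM and 1.06 ± 0.78 CPM at 50 µM (SD, n = 3). Those of OX3 were 4.96 ± 2.2 and 1.44 ± 1.5 CPM (SD, n = 3). In the latter gene OX3 replicate 4 at 50 µM, at 3.1 CPM, lay next to OX3 control replicate 4 at 3.22 CPM. Glyma.01G019100 was nearly alike in the materials, at 9.06 ± 3.1 and 2.22 ± 0.31 CPM (SD, n = 3) in W and at 10.9 ± 4.6 and 2.68 ± 1.2 CPM (SD, n = 3) in OX3. Glyma.14G138300 was at 13.2 ± 7.4 and 2.15 ± 0.44 CPM (SD, n = 3) in W, a ratio of 6.11, and at 7.83 ± 2.3 and 3.03 ± 1.7 CPM (SD, n = 3) in OX3, a ratio of 2.59. For Glyma.20G186500 the larger ratio was in OX3, at 4.64 against 2.68 in W. Its OX3 libraries went from 61.9, 52.7 and 33.5 CPM to 8.87, 11.5 and 11.5 CPM, and its W libraries from 29.8, 43.9 and 22 CPM to 16.4, 12.4 and 6.98 CPM. Glyma.15G142400 completes the 12 and is described with the most abundant genes. Of these 12 genes, 11 also met the rule on TMM totals, the exception being Glyma.10G297000.

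**Figure D2:**
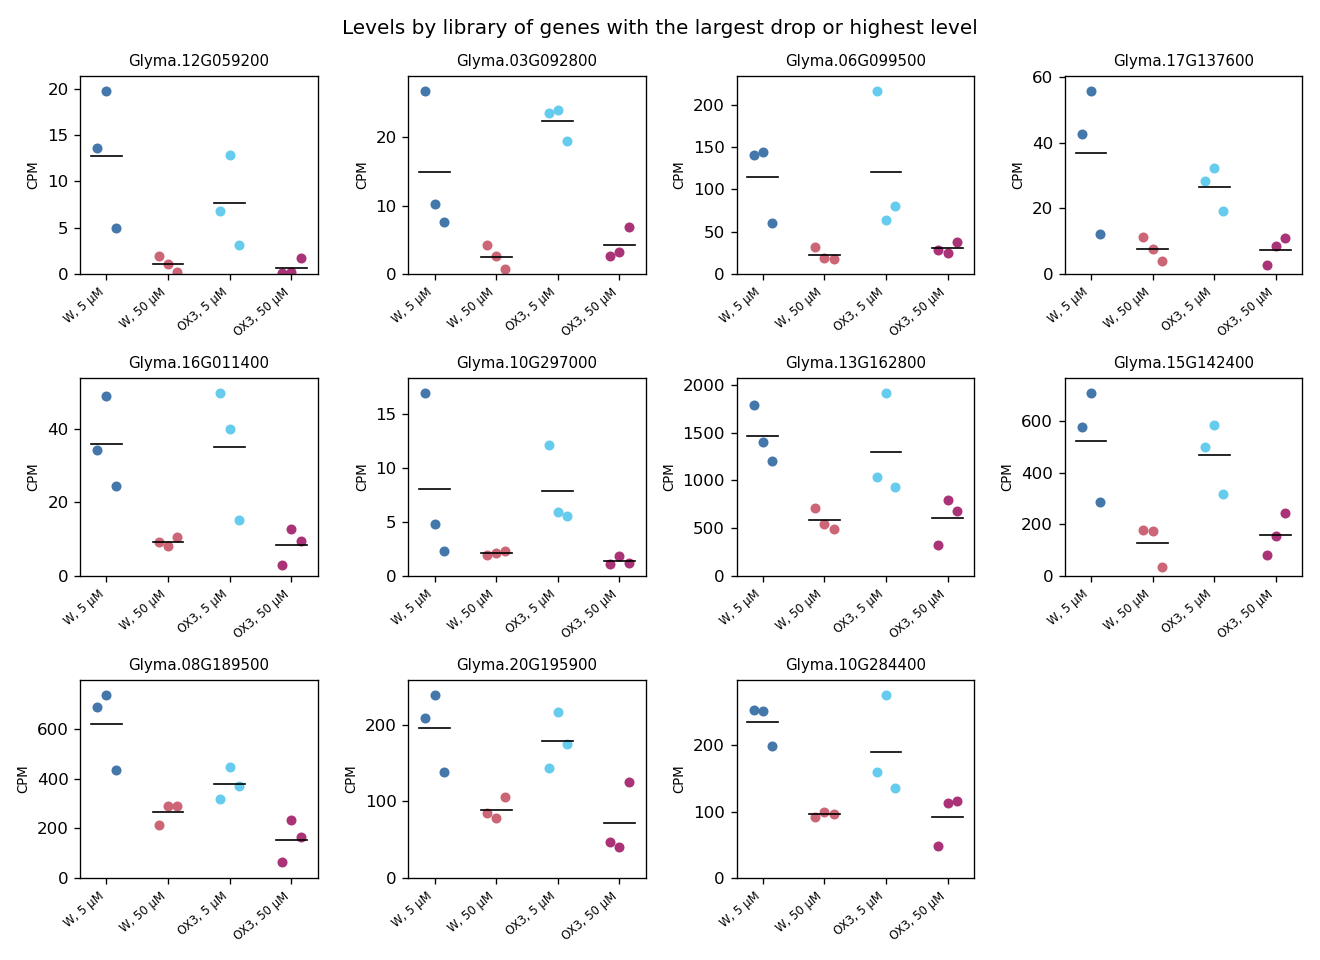
CPM by library for the 6 genes with the largest mean drop and the 6 with the highest FPKM, 1 of which is in both sets, with 1 panel per gene and its own linear axis from 0. Points are libraries in the order of their replicate numbers and bars are group means (n = 3). In each panel all points at 50 µM lie below all points at 5 µM, and in most panels the last control point is the lowest of its group.

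Levels of different genes were compared as FPKM, the authors' values per kilobase of gene length. The 55 genes spanned means from 0.725 to 312 FPKM with a median of 2.99, below the median of 6.94 FPKM of the genes at 2 CPM or more. By mean CPM, 33 lay under 10, 17 between 10 and 100, and 5 at 100 or above. Glyma.13G162800 was the most abundant, at 463 FPKM in the W controls, 410 in the OX3 controls, 185 in W at 50 µM and 191 in OX3 at 50 µM. Glyma.15G142400 followed at 380 FPKM in the W controls and 339 in the OX3 controls, with a mean over all libraries of 232 FPKM against 312 for the former. Together with Glyma.08G189500 these held between 56.4% and 70.3% of all reads of the 55 genes in a library. Of all counts in a library, the 55 genes made up 0.258% to 0.466% at 5 µM and 0.081% to 0.172% at 50 µM. OX3 replicate 2 at 50 µM had the lowest of these shares. In RNA from whole roots, fewer cells of a type and less RNA per cell cannot be told apart.

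In counts, Glyma.13G162800 was at 1787, 1406 and 1199 CPM in the W controls and at 712, 543 and 495 CPM in W at 50 µM. Its OX3 libraries were at 1039, 1919 and 931 CPM at 5 µM and at 329, 797 and 683 CPM at 50 µM. Replicate 4 was the lowest control in each material, and the ratio of the means was 2.51 in W and 2.15 in OX3. Glyma.15G142400 was at 577, 711 and 287 CPM in the W controls and at 177, 173 and 36.6 CPM in W at 50 µM. Its OX3 libraries were at 502, 586 and 319 CPM at 5 µM and at 81.4, 154 and 244 CPM at 50 µM. W replicate 3 at 50 µM stood far below the other libraries of its group for this gene.

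The other abundant genes had drops near the bound of the rule. Glyma.08G189500 was at 691, 740 and 435 CPM in the W controls and at 213, 290 and 290 CPM in W at 50 µM. Its OX3 libraries were at 320, 448 and 373 CPM at 5 µM and at 65, 234 and 164 CPM at 50 µM. Here OX3 control replicate 2 and not a replicate 4 was the lowest control. The W means of Glyma.20G195900 were 195 ± 52 CPM at 5 µM and 88.9 ± 14 CPM at 50 µM (SD, n = 3). Those of OX3 were 179 ± 37 and 71 ± 47 CPM (SD, n = 3). Its OX3 libraries at 50 µM were at 47.2, 41 and 125 CPM, and without the last of them, replicate 4, the log2 change in OX3 was -2.01 in place of -1.32. Glyma.10G284400 had the steadiest levels of the 6 in W, at 253, 251 and 199 CPM against 91.7, 100 and 96.5 CPM. Its OX3 libraries were at 160, 276 and 135 CPM and at 47.4, 113 and 116 CPM. On TMM totals only Glyma.06G099500 and Glyma.15G142400 of the 6 most abundant still met the rule.

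The rule sets the same bound on the drop in each material, so the sizes below are a description and no likeness of the materials is read from them. The ratio of the control mean to the mean at 50 µM had a median of 2.83 in W and 2.8 in OX3, and ranged from 2.15 to 12.1 and from 2.03 to 11.5. The log2 drop was larger in W for 31 genes and larger in OX3 for 24, and for 49 genes the materials were within 0.5 of each other on the log2 scale. Across the 55 genes the 2 changes had a Pearson r of 0.57, a description only, since the rule cuts both off at the same bound.

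**Figure D3:**
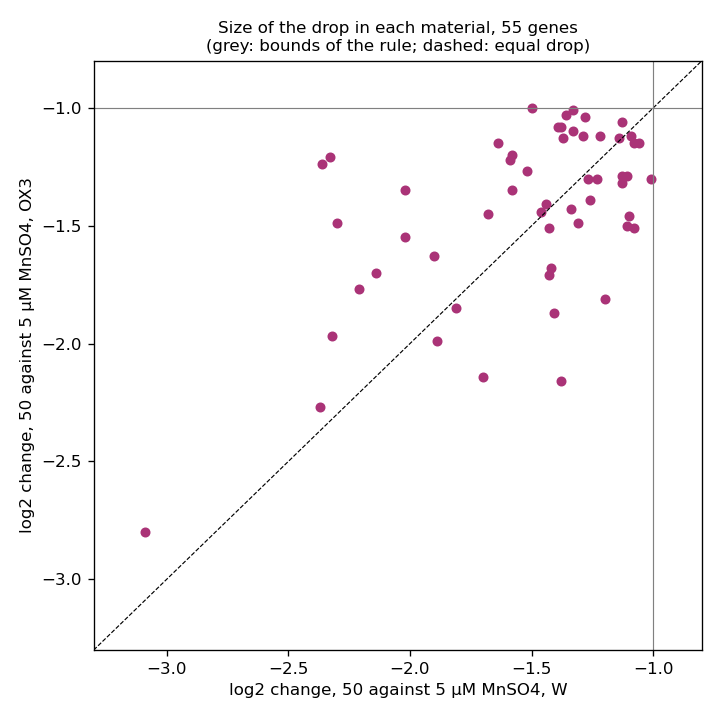
Log2 change from 5 to 50 µM MnSO4 of each of the 55 genes in W (horizontal) and in OX3 (vertical), from group means of CPM plus 0.5. Most points lie in the corner between -1 and -2 on both axes, on either side of the dashed line of equal drop, and Glyma.12G059200 lies farthest out at -3.09 and -2.80.

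In edgeR's quasi-likelihood test across all genes, with Benjamini-Hochberg adjustment, 0 of the 55 responded differently in the 2 materials at an adjusted p of 0.05, against 0.00314% of all genes tested. At an unadjusted p under 0.05 the count was again 0 of 55, against 7.55% of all genes. DESeq2 also called 0 of the 55. The rule bounds the response in each material, so nothing is read from these counts. The difference of the 2 log2 responses, OX3 less W, ranged from -0.69 to 1.26 with a median SE of 0.57. Glyma.12G074100 was at the upper end, with ratios of 5.66 in W and 2.44 in OX3. Its W libraries were at 25, 18.6 and 9.28 CPM and at 3.8, 4.34 and 1.2 CPM. Its OX3 libraries were at 14.3, 14.5 and 9.49 CPM and at 4.67, 2.9 and 8.11 CPM, with replicate 4 at 50 µM near the lowest control.

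The treatment comparison of edgeR uses the same values as the rule, so its counts are given for reference and nothing is read from them. Within W alone 0 of the 55 genes passed an adjusted p of 0.05, as 0.00314% of all genes tested did in either direction and 0% as lower, and within OX3 0 of 55 passed, as 0% of all genes did. At an unadjusted p under 0.05 the count was 55 of 55 in each material, where 10.2% of all genes in W and 7.78% in OX3 were lower at that level. DESeq2 called 40 of the 55 among 1616 genes in W, and 23 among 1095 in OX3. Over both materials edgeR called 38 of the 55 among 740 genes, and 1.05% of all genes passed as lower. The log2 fold changes of the 55 in that fit ranged from -3.41 to -1.01, with a median of -1.35 against -0.04 for all genes tested. Over both materials DESeq2 called 55 of the 55 among 4143 genes, and limma-voom 20 among 276. Limma on log2 FPKM called 46 among 864 with a pseudocount of 1 and 48 among 995 with one of 0.1. With the replicate number as a block none was called (0 of 0 genes). That block also joined same-numbered libraries of different treatments. The deviations of such libraries correlated at -0.36 to 0.27, so a pairing across treatments is not shown. Replicate number 1 occurred only in W at 50 µM, so that library added nothing to the blocked comparison. Without W control replicate 4 the count was 49 among 1842 genes, without OX3 control replicate 4 49 among 1721, and without OX3 replicate 4 at 50 µM 47 among 1806. It was 0 of the 55 without any one of the other 9 libraries.

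The positions of single libraries inside their groups are described next. The rule sets the lowest control against the highest library at 50 µM, so it acts on these positions, and they are a description too. Counts of genes by position, here and for the libraries at 50 µM below, were not made over all genes. W control replicate 4 was below its group mean in all 55 genes, with a median deviation of -0.55 on the log2 scale, where the median over the 25399 genes at 2 CPM or more was -0.08. OX3 control replicate 4 was below its group mean in 52 genes, with a median of -0.42 against -0.13. A replicate numbered 4 was the lowest of the 6 controls in 50 of the 55 genes, W in 34 and OX3 in 16. The exceptions were Glyma.08G189500, Glyma.13G229500 and Glyma.20G238000, where OX3 control replicate 2 was lowest, and Glyma.18G197600 and Glyma.20G019400, where W control replicate 3 was lowest. These 5 are named for that reason, after their values were seen. On TMM totals a replicate 4 was lowest in 41 genes, W in 20 and OX3 in 21, and the median deviations were -0.46 in W and -0.31 in OX3.

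The libraries at 50 µM were spread in the same genes. OX3 replicate 4 was the highest of the 6 in 23 genes and W replicate 1 in 16, with medians of 0.27 and 0.31 above their group means, against 0.03 and 0.08 for all genes at 2 CPM or more. On TMM totals this order turned, with W replicate 1 highest in 20 genes and OX3 replicate 4 in 18. At the other end OX3 replicate 2 was lowest in 24 genes and W replicate 3 in 16, with medians of -0.38 and -0.29. Relative to the control mean of the material, the median log2 level of the 55 genes was -1.06, -1.42 and -1.62 in W replicates 1, 2 and 3 at 50 µM. It was -1.85, -1.27 and -1.10 in OX3 replicates 2, 3 and 4. That each of these medians is below 0 was fixed by the rule, and W replicate 1 and OX3 replicate 4 had the smallest drops.

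**Figure D4:**
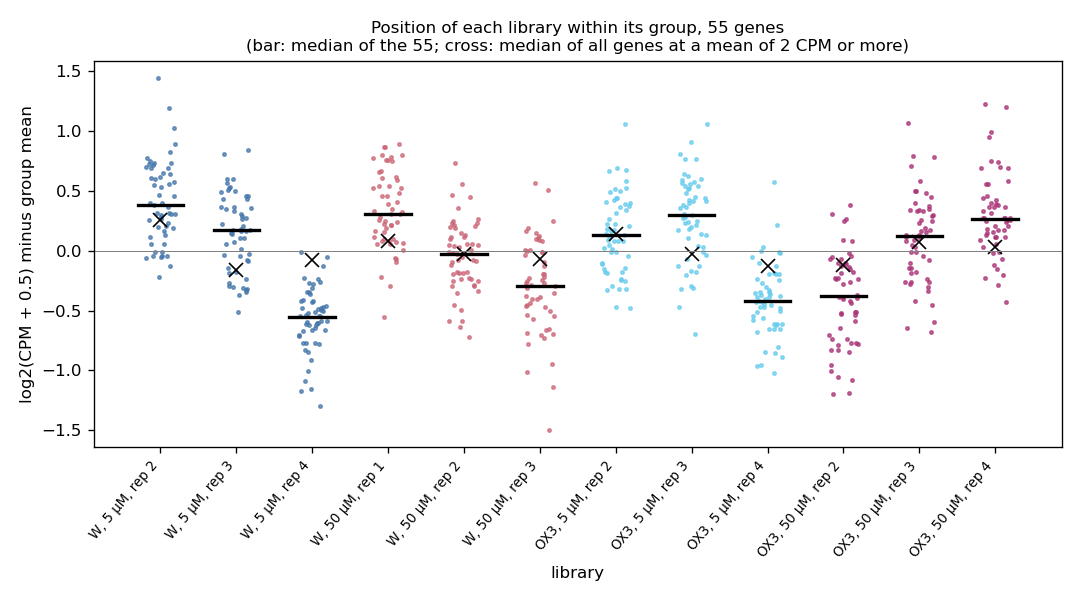
Deviation of each library from the mean of its group, as log2(CPM + 0.5), with 1 point per gene for the 55 genes, a bar at their median and a cross at the median of the 25399 genes at 2 CPM or more. The bars of both control replicates numbered 4 lie lowest among the controls, at -0.55 and -0.42, farther from 0 than their crosses at -0.08 and -0.13.

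The 55 genes moved together inside the groups. Taking each library's deviation from its group mean, the 1485 pairs of genes had a median Pearson r of 0.52 over the 12 libraries, and 94.3% of pairs were above 0. Over all pairs of the 25399 genes the median was 0.14 and 60.4% were above 0. What part of the movement of the 55 is common to genes in general was not tested. On TMM totals the median for the 55 was 0.41. These points share libraries and depth, and the rule was applied to the same values, so the numbers are a description. The tightest pair was Glyma.15G021900 and Glyma.15G243100, with r of 0.97. They are on the same chromosome but far apart. From the former to Glyma.15G117500, which lies between them, there are already 805 listed genes. Whether reads were divided between similar copies cannot be seen from the counts. Glyma.18G031800 was the 1 gene with a median r to the others under 0.2, at 0.05, and Glyma.05G173400 was among the highest, at 0.70. The relative spread was also larger than in all genes at 2 CPM or more. The 55 had lower levels, with a median of 7.49 CPM against 13.6 CPM, and genes of like level were not compared. The median coefficient of variation of the 55 genes was 41.1% in the W controls and 35.7% in the OX3 controls, against 29.0% and 25.4% for all genes at 2 CPM or more. At 50 µM it was 34.3% in W and 30.3% in OX3, against 22.0% and 23.5%.

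The number of genes chosen rested on the same libraries. Without W control replicate 4 the rule chose 219 genes, without OX3 replicate 4 at 50 µM 200, and without OX3 control replicate 4 it chose 169. It chose 97 without W replicate 1 at 50 µM and 85 without OX3 replicate 3 at 50 µM. In 4 of these 5 cases all 55 were among them, and without OX3 replicate 3 at 50 µM 52 were. Leaving out any other single library gave between 42 and 63 genes. Fewer libraries make a gap easier to pass, which by itself raises the count. What part the position of these libraries has in the drops was not tested.

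The difference between OX3 and W was no condition of the rule, but the rule bounds it. The libraries of both materials are pooled in the gap between treatments. A gene that differed between OX3 and W by more than its drop would therefore have overlapped and been left out. A gene with a larger drop could differ more and still pass. The counts and p-values below are therefore not independent of the choice of genes, and no likeness of the materials is read from them. In edgeR's test none of the 55 genes passed at 5 µM (0 of 55, against 0.0126% of all genes tested), at 50 µM (0 of 55, against 0.0157%) or averaged over both treatments (0 of 55, against 0.148%). DESeq2, limma-voom and limma on log2 FPKM likewise called 0 of the 55 in each of these comparisons. At an unadjusted p under 0.05 the counts were 1, 1 and 2 of 55, or 1.82%, 1.82% and 3.64%, where 10.2%, 8.76% and 11.6% of all genes reached it. With the replicate number as a block, 0 of the 55 were called, as before, and the counts over all genes went from 4, 5 and 47 to 0, 0 and 11. The median log2 fold change of the 55, OX3 against W, was -0.17 at 5 µM and -0.08 at 50 µM, against 0.05 and 0.02 for all genes tested. At 5 µM 38 of the 55 were lower in OX3 and at 50 µM 32, where 46.1% and 48.1% of all genes tested were lower. The differences of the 55 ranged from -0.96 to 0.61 and from -0.96 to 0.65. The SE of these differences had a median of 0.40 at each dose, and a p that misses the threshold does not show that the materials were alike.

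The lowest p among the 55 belonged to Glyma.08G189500, which had lower means in OX3 at both doses. Its log2 fold change was -0.89 (SE 0.42) at 5 µM, -0.96 (SE 0.42) at 50 µM and -0.93 (SE 0.29) averaged, and edgeR's adjusted p for the average was 0.31. Over the alternatives the adjusted p of that comparison ran from 0.052, in DESeq2, to 0.64, without W control replicate 3. On raw totals the materials overlapped at each dose, at 5 µM because W replicate 4, at 435 CPM, lay below OX3 replicate 3, at 448 CPM. The fold changes are on TMM totals, where the factors of these libraries were 0.924 and 1.1. On that scale W replicate 4 lay above OX3 replicate 3, so this overlap depends on the scaling. Glyma.11G221200 was at 74.4, 118 and 53.5 CPM in the W controls and at 41.9, 70.1 and 36.3 CPM in the OX3 controls. The difference at 5 µM was -0.95 on the log2 scale (SE 0.39; adjusted p 0.48, edgeR's quasi-likelihood test). At 50 µM its W libraries were at 33.7, 28.2 and 23.9 CPM and its OX3 libraries at 13.5, 32.2 and 27.5 CPM, and the groups overlapped.

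In the other direction the differences were smaller. Glyma.16G070100 was at 27.1, 33.3 and 19.5 CPM in the W controls and at 68.5, 41.6 and 33.1 CPM in the OX3 controls. The log2 difference was 0.61 (SE 0.32; adjusted p 0.52, edgeR). Glyma.12G208800 was at 3.96, 3.92 and 2.71 CPM in W and at 7.26, 4.96 and 4.54 CPM in OX3 at 5 µM, a log2 difference of 0.46 (SE 0.31). On raw totals it was the 1 gene of the 55 whose OX3 controls all lay above the W controls (1.82%, where 8.43% of genes at 2 CPM or more did). None had them all below (0%, where 3.68% did). With TMM factors of 0.861 for W replicate 3 and 1.04 for OX3 replicate 4, these controls change order, so that separation is lost on TMM totals. At 50 µM no gene of the 55 had all OX3 libraries above W (0%, against 15.6%). Glyma.10G297000 was the 1 gene with all of them below (1.82%, against 5.14%). All of these shares were counted on raw totals only. The condition on overlap limits such separation, and nothing is read from these shares. Glyma.11G012000, at 4.86, 2.46 and 2.17 CPM in W and 4.43, 3.69 and 6.14 CPM in OX3 at 50 µM, differed by 0.47 on the log2 scale (SE 0.38). Glyma.20G238000, at 7.93, 10.6 and 5.23 CPM against 4.13, 7.38 and 7.54 CPM, differed by -0.46 (SE 0.29). In both genes the materials overlapped. Glyma.12G074100 and, averaged over both treatments, Glyma.03G092800 had higher means in OX3, by 0.64 at 50 µM (SE 0.48) and by 0.57 (SE 0.38), with adjusted p of 0.7 and 0.55 in edgeR.

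**Figure D5:**
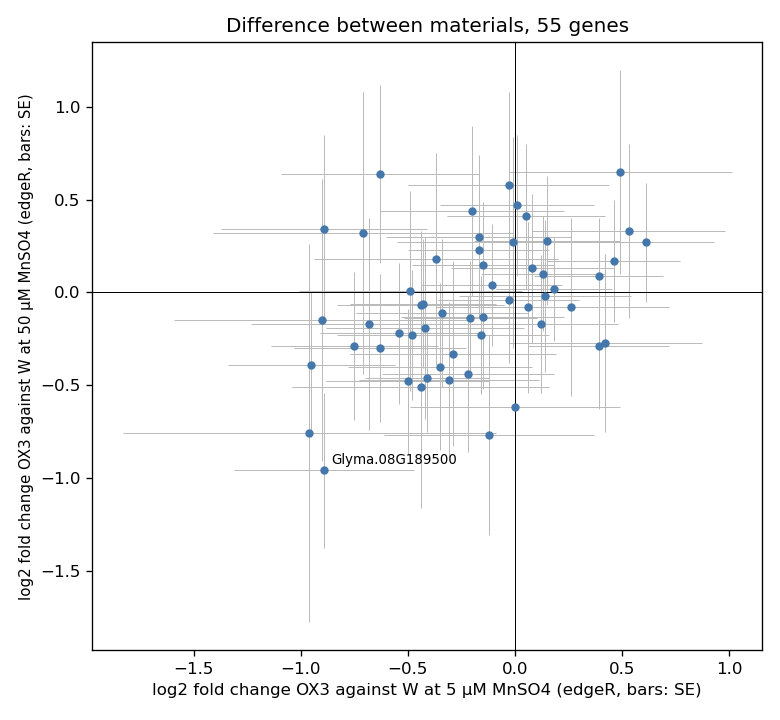
Log2 fold change of OX3 against W at 5 µM (horizontal) and at 50 µM MnSO4 (vertical) for each of the 55 genes, from edgeR, with SE as bars. The points scatter around 0 on both axes, and Glyma.08G189500, the 1 gene labelled, lies at -0.89 and -0.96.

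The 55 genes were spread over the genome. Each of the 20 chromosomes held at least 1 of them, and chromosome 20 held the most with 6, followed by chromosomes 5 and 11 with 5 each. Glyma.01G018800 and Glyma.01G019100 lay closest in the numbering, with 2 listed genes between them. The former was at means that changed by a log2 of -1.43 in W and -1.51 in OX3, the latter by -1.81 and -1.85. Glyma.20G186500 and Glyma.20G188400 were next, with 16 genes between them and an r of 0.87 for their deviations inside groups. All other neighbours had at least 37 listed genes between them. Gene lengths, as implied by the authors' counts and FPKM, had a median of 2076 bp with quartiles at 1746 and 2841 bp, against 1921 bp and quartiles at 1378 and 2626 bp for all genes at 2 CPM or more. They ran from 418 bp in Glyma.10G297000 to 5323 bp in Glyma.20G238000.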

How the data were processed

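Root RNA gave 12 libraries. The authors deposited raw read counts for each gene, and FPKM values in which each value equals the deposited count scaled by gene length and column total. HTSeq 0.6.0, HISAT2 2.1.0, TopHat2, Bowtie2 2.2.3 and CASAVA appear, without roles, in the submitters' processing notes. Strand setting and the handling of reads shared by similar genes are not given in the sources used here. Groups and replicate numbers were read from the sample titles.

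Genes were chosen on CPM from raw column totals with a pseudocount of 0.5. The choice of genes, the lists and the comparisons were made with earlier results of these data known. The quasi-likelihood test of edgeR 4.0.16 (R 4.3.3) was run on 31841 genes kept by filterByExpr, all 55 among them, with TMM factors from 0.859 to 1.25 and 1 mean for each of the 4 groups. Tests were two-sided, p-values were adjusted by Benjamini-Hochberg across these genes, and the threshold was 0.05. The procedure was tried on simulated counts for OX3 against W averaged over both treatments only. There 200 genes were changed 4-fold, and 31283 genes passed the filter. Of the changed genes that passed it, 81.25% were recovered, with 12 false calls. Changed genes lost to the filter are not in that share. The manganese comparisons and the interaction were not simulated. At totals between 15175866 and 19408318, 3 counts correspond to between 0.155 and 0.198 CPM in a library.

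Named genes were the 12 with the most negative mean of the 2 log2 changes, the 6 with the highest mean FPKM, the 2 with the smallest p in each direction per comparison of materials, and those nearest each bound. Others are named as the extremes of a described measure. Deviations of same-numbered control libraries of OX3 and W correlated across genes at 0.34, 0.46 and 0.31 for replicates 2, 3 and 4. At the higher dose the values were 0.20 and 0.36 for replicates 2 and 3. Libraries of different treatments ran from -0.36 to 0.27 with the same number and from -0.25 to 0.39 with different numbers. Possible pairs were therefore seen within a treatment only, from the data and not the labels. The replicate block also joined same numbers across treatments, where these values show no pairing. Alternatives were DESeq2 1.42.0, limma 3.58.1, other scalings, filters and pseudocounts, a replicate block, and leaving out each library. Calculations used Python 3.11.15 with pandas 2.3.3 and numpy 2.4.6.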

Additional observations from a re-analysis of the deposited data

How the results depend on the processing

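The rule chose 55 genes. It chose 34 with DESeq2 size factors, 29 with a pseudocount of 2, 10 with a log2 bound of -1.5, 534 without the condition on overlap and 31 on FPKM, and between 42 and 219 without any one library. Without both control replicates numbered 4, chosen after seeing the data, it chose 511. The other settings of the rule stayed within 1.5 times of 55. The alternatives run called 0 of the 55 genes between the materials and for the interaction, differences that the rule bounds. DESeq2 called 1616, 1095, 4143, 72, 234, 240 and 605 genes for Mn in W, Mn in OX3, Mn over both, the interaction, and OX3 against W at 5 µM, at 50 µM and averaged, where edgeR called 1, 0, 740, 1, 4, 5 and 47. Of the 55 genes DESeq2 called 40 in W and 23 in OX3. Limma-voom called 276 genes over both materials, 20 of them among the 55, and 0 between materials at either dose. Limma on log2 FPKM called 2 genes for Mn in W and 0 for the interaction with a pseudocount of 1, 9 and 20 between materials at 5 and 50 µM, and 10, 25 and, for the interaction, 0 with a pseudocount of 0.1. Without a filter on low counts the interaction had 0. With the replicate block the counts were 0 for Mn in W, for Mn over both (0 of the 55) and for the interaction, 0 between materials at either dose and 11 averaged. The cause of these differences was not tested. Without any one library the counts ran from 0 to 9, 0 to 8, 0 to 1842, 0 to 0, 0 to 100, 0 to 6 and 20 to 579 in the order above, and from 0 to 49 of the 55 genes for Mn over both. Of 544 recomputed log2 changes of the 16 genes named for drop or level, 0 reversed and 538 moved by less than the spread between replicates. Of 228 recomputed differences between materials, 0 reversed and 0 passed the threshold. Genes with few reads, such as Glyma.12G059200 at 50 µM, are limited by counting.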
